A study of Mus musculus with 5 samples.

Results

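The genes for the subunits of the GABA-A, glycine and nicotinic acetylcholine receptors were taken from the mouse annotation by their symbols. They were taken from the Gabra, Gabrb, Gabrg, Gabrd, Gabre, Gabrp, Gabrq, Gabrr, Glra, Chrna, Chrnb, Chrnd, Chrne and Chrng genes and Glrb. Of the 22367 protein-coding genes on assembled chromosomes, 37 are reported here, 16 of them for GABA-A, 5 for glycine and 16 for nicotinic receptors. These 37 are the receptor genes of the counts that follow. A gene was given every peak that overlapped its body or lay within 50 kb of its start. REST was immunoprecipitated with the monoclonal antibody 12C11, raised in mouse, and the DNA was sequenced (ChIP-seq). Chromatin came from the whole pancreas of wild-type embryos of a mixed strain with C57BL/6, left untreated. At E13.5 (E, embryonic day) 2 libraries, A and B, were each made from a pool of 4 to 6 pancreases, and at E18.5 3 libraries, A, B and C, were each made from a pool of 3 to 4. The 5 peak lists held 226 to 541 peaks at E18.5 and 1333 to 1400 at E13.5. Peaks of E13.5 A were shorter (median 161 bp) than those of the other libraries (medians of 311 to 483 bp). Each pool held all cell types of the organ, so weaker binding in all cells and binding in fewer cells cannot be told apart, and the cells that carried a peak are not known. Whether the receptor genes were expressed was not measured in these lists.

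REST is a zinc-finger repressor that keeps neuronal genes silent in cells that are not neurons. It recognizes a long DNA element called RE1 and recruits corepressor complexes with histone deacetylases. The receptors named here are pentameric ion channels of the Cys-loop family. GABA-A and glycine receptors conduct chloride and mediate fast inhibition in the brain and spinal cord, whereas nicotinic receptors conduct cations and mediate fast excitation at the neuromuscular junction and in autonomic ganglia. In the pancreas, beta cells synthesize GABA, islet cells carry GABA-A receptors, and nicotinic receptors serve the parasympathetic ganglia within the organ.

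REST sites were found at 8 of the 37 receptor genes at E13.5, where a site had to be called in both libraries. Among all protein-coding genes 6.90% had such a site in reach, and among the receptor genes 21.6% had one. The bound genes were Gabrd (GABA-A), Glra1 and Glra3 (glycine), and Chrna2, Chrna3, Chrna5, Chrnb2 and Chrnb4 (nicotinic). At E18.5 a site had to be called in at least 2 of the 3 libraries, and 3 of the 37 genes (8.11%) had one, beside 2.20% of all genes. These were Gabrd, Glra1 and Chrnb2, and all 3 were also among the 8 genes of E13.5. A peak of any library was in reach of 11 receptor genes, beside 9.80% of all genes, and 26 receptor genes had none. The E18.5 count rested on few libraries. It was 1 gene (Glra1) without library A, 2 genes without library B and 2 genes without library C, each time with the remaining 2 libraries both required. The share of all genes with a library left out was not counted.

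The 8 genes bound at E13.5 were served by 6 sites, since 1 site was in reach of 3 clustered nicotinic genes. The best RE1 element of each of the 6 sites is shown. A match to RE1, as defined below, was found at 79.0% of all searched E13.5 sites, so it is not particular to receptor genes. The consensus was built from 1174 sites called in both E13.5 libraries, none of them at a receptor gene, and 857 of these held an element that entered the final alignment. It has 21 positions, of which 2 are written N and were not scored. Capitals in the elements mark bases that match it. All are written 5′ to 3′ on the strand of the element, in mm9.
RE1 consensus: TTCAGCACCANGGACAGCNCC
Chrnb2 (chr3:89568376-89568396, minus strand, 5′ UTR in exon 1): TTCAGCACCAcGGACAGCgCt
Chrna2 distal (chr14:66780376-66780396, plus strand, downstream of the gene): TTCAGCACCtaGGACAGCaCC
Glra1 (chr11:55421439-55421459, plus strand, 5′ UTR in exon 1): TTCAGCACCAcGGAgAGCgtC
Glra3 (chr8:58419557-58419577, minus strand, 5′ UTR in exon 1): TTCAGCACCtcaGACAGCtCC
Gabrd (chr4:154771789-154771809, plus strand, intron 1): TTCAGCACCgaGGACgGCgga
Chrna3 (chr9:54874158-54874178, plus strand, coding part of exon 1): agCAtCAgCAtGGACAGCggC

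A match was defined as an element with at most 5 mismatches among the 19 scored letters, on either strand, in the 500 bp around the centre of a site. All 6 receptor sites held a match, beside 79.0% of the 1183 E13.5 sites that could be searched, and 1.35% of windows of the same length taken 10 kb away. The receptor elements had a median of 2 mismatches and those of all searched sites a median of 3. Chrnb2 and the distal Chrna2 site had 1 mismatch each, and Glra1 and Glra3 had 2 each, whereas Gabrd had 4 and Chrna3 5. The Chrna3 element thus lay at the limit that defined a match, and all 6 elements lay within 24.5 bp of the centre of their site.

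**Figure D1:**
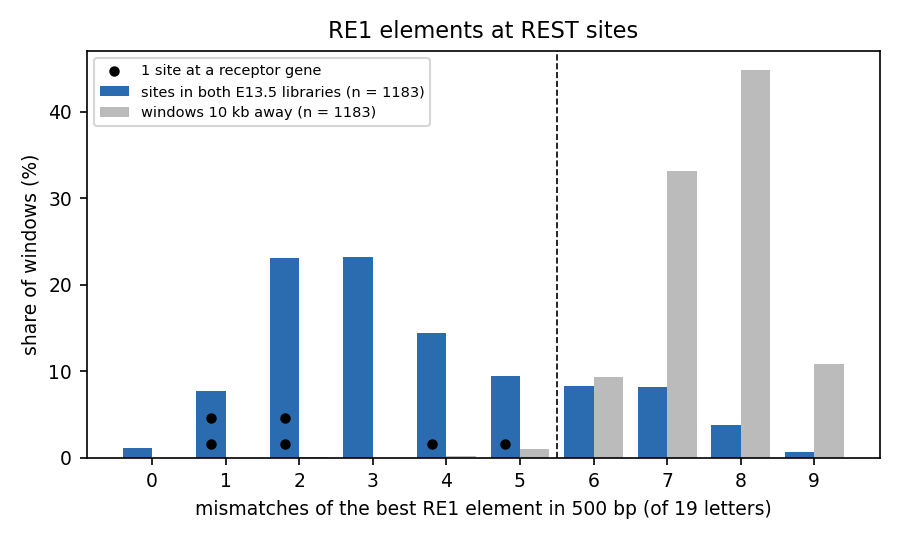
Mismatches of the best RE1 element (of 19 scored letters) in 500-bp windows, as the percentage of 1183 sites called in both E13.5 libraries (blue bars) and of 1183 windows 10 kb away (grey bars); each black dot is 1 receptor site and the dashed line marks the limit of 5 mismatches. All 6 receptor sites lie at or below the limit, with 4 of them at 1 or 2 mismatches, whereas 44.8% of the windows 10 kb away have 8.

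Among the 6 receptor elements, positions 3, 4, 6, 7, 9, 13, 14, 17 and 18 of the consensus were kept in every one. Positions 10 and 20, an A and a C in the consensus, were each kept in 3 of 6. Pairs of elements were identical at 12 to 18 of the 21 positions, with a median of 16 over the 15 pairs. The closest pairs, each with 18 identical bases, were Glra1 with Chrnb2 and the distal Chrna2 site with Glra3, and both join a glycine and a nicotinic receptor gene. Chrna3 differed most, with 12 identical bases to Glra3. Each element was picked as the best match to the same consensus, so likeness within a pair follows in part from the mismatch counts.

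Most receptor sites of E13.5 lay just past a gene start. A site called in both E13.5 libraries overlapped the 5 kb on either side of the start of 5 of the 37 receptor genes, beside 1.56% of all genes, and at E18.5 this held for 3 (8.11%) beside 0.604%. Of the 6 receptor sites, 5 lay within 5 kb of a start, beside 27.8% of the 1183 E13.5 sites. These shares are not like for like, since receptor sites had to lie in a gene body or within 50 kb of a start. The 1183 sites were not so limited. All 5 receptor sites near a start were centred downstream of it, as were 61.1% of the 329 sites near any start. The centres lay 176 bp downstream at Chrnb2, 200 bp at Chrna3, 275 bp at Glra1, 318 bp at Glra3 and 427 bp at Gabrd. The RE1 element ran in the direction of transcription at 1 of the 5 (Chrnb2) and against it at the other 4. Near all starts, 49.8% of 229 elements ran in the direction of the gene. The Gabrd element was in intron 1 of the coding transcript and overlapped an exon of a non-coding transcript of the same gene. The Gabrd site was also in reach of Prkcz and 2010015L04Rik, and the Glra3 site of Adam29.

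**Figure D2:**
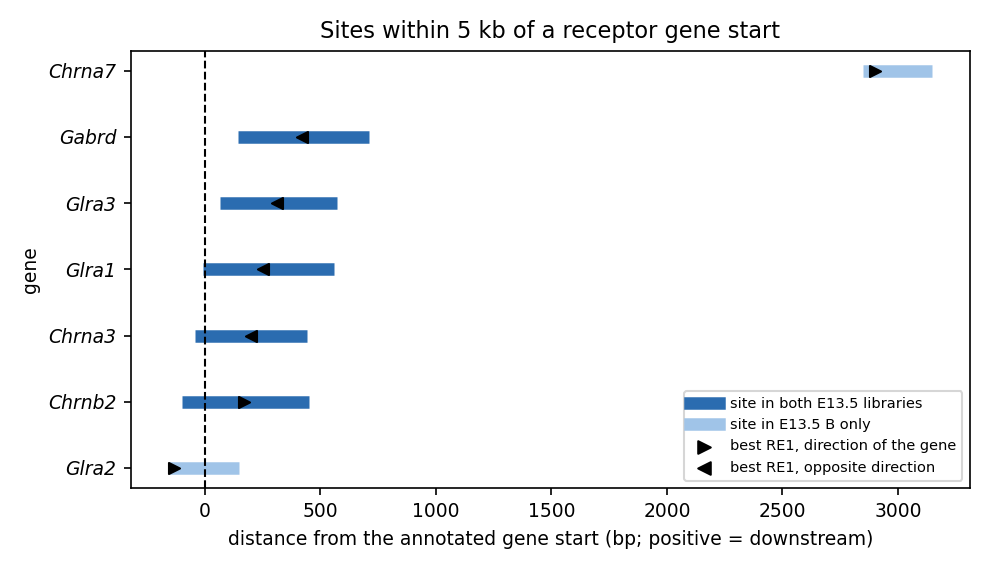
Position of each REST site within 5 kb of a receptor gene start, in bp from the annotated start, with positive values downstream. Dark bars are sites called in both E13.5 libraries, light bars sites called in E13.5 B only, and triangles the best RE1 element, pointing right where it runs with the gene. The 5 dark bars are centred 176 to 427 bp downstream of the dashed line that marks the start.

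Peaks were ranked within each library by the score the authors deposited, a whole number with no stated unit. A percentile of 100 is the highest score of a library, and percentiles rather than scores were set side by side.

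Glra1 encodes an alpha subunit of the glycine receptor that binds the ligand, and its mutations cause startle disease. Its site (chr11:55421150-55421716) was the only receptor site called in all 5 libraries. Its scores were 44 and 70 in E13.5 A and B, and 21, 18 and 24 in E18.5 A, B and C. The E13.5 percentiles were 97.8 and 98.6, and those of E18.5 were 95.6, 93.3 and 89.8. The site was near the top of every list. Its E18.5 percentiles were all below those of E13.5, but the same rank gives a lower percentile in a shorter list. The E18.5 lists were the shorter ones, so these percentiles do not show a lower rank at E18.5.

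Glra3 and Glra2 encode further alpha subunits of the glycine receptor. The Glra3 site (chr8:58419316-58419823) had scores of 12 and 18 at E13.5, at percentiles of 39.6 and 53.7, and no E18.5 peak. A Glra2 peak (chrX:161765176-161765480), centred 3 bp upstream of the start, was called in E13.5 B alone, with a score of 10 at percentile 12.8. Its best RE1 element had 5 mismatches and lay 133.5 bp from the centre. Glra4 and Glrb, which encodes the beta subunit that binds the anchoring protein gephyrin, had no peak in reach.

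Gabrd encodes the delta subunit, which is found in extrasynaptic receptors that give tonic inhibition. Its site (chr4:154771544-154772110) had scores of 35 and 28 at E13.5 and 12 in both E18.5 A and E18.5 C, with no peak in E18.5 B. The percentiles were 94.8, 79.7, 86.9 and 58.0 in that order, so the ranges of the stages overlapped. A further GABA-A gene, Gabra2, had a peak 32.2 kb upstream of its start in E13.5 B alone, with a score of 7 at percentile 1.73 and an RE1 element with 3 mismatches.

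Chrnb2 encodes the beta subunit of the most common nicotinic receptors of the brain. Its site (chr3:89568102-89568648) had scores of 28 and 45 at E13.5, 16 in E18.5 A and 12 in E18.5 B, and no peak in E18.5 C. The E13.5 percentiles were 88.6 and 95.1, and those of E18.5 A and B were 92.8 and 88.2, so the ranges overlapped here as well. The site was also in reach of Adar, Ube2q1 and 4632404H12Rik.

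Chrna3, Chrna5 and Chrnb4 lie side by side on chromosome 9 and encode subunits of the nicotinic receptors of autonomic ganglia. Their shared site (chr9:54873921-54874403) lay 0.2 kb downstream of the Chrna3 start, 45.5 kb from that of Chrna5 and 22.2 kb from that of Chrnb4. The scores were 10 and 12 at E13.5, at percentiles of 27.0 and 23.6, and there was no E18.5 peak. All 3 genes were counted as bound through this 1 site, which was weak in both lists. Chrna5 also had a peak 47.3 kb upstream of its start in E18.5 A alone, with a score of 7 at percentile 61.2. That peak was nearest to the start of Agphd1, and its best RE1 element had 8 mismatches, which is no match.

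Chrna2, which encodes an alpha subunit found in a limited set of neurons, had a site 20.6 kb downstream of its start and past the end of the gene (chr14:66780102-66780637). The scores were 13 and 26 at E13.5, at percentiles of 44.8 and 75.7, with no E18.5 peak. Ephx2 and Ptk2b were in reach of the same site. Chrna7, which encodes the subunit of the homomeric receptor bound by alpha-bungarotoxin, had a peak 3.0 kb into the gene in E13.5 B alone, with a score of 10 at percentile 12.8 and an RE1 element with 5 mismatches.

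**Figure D3:**
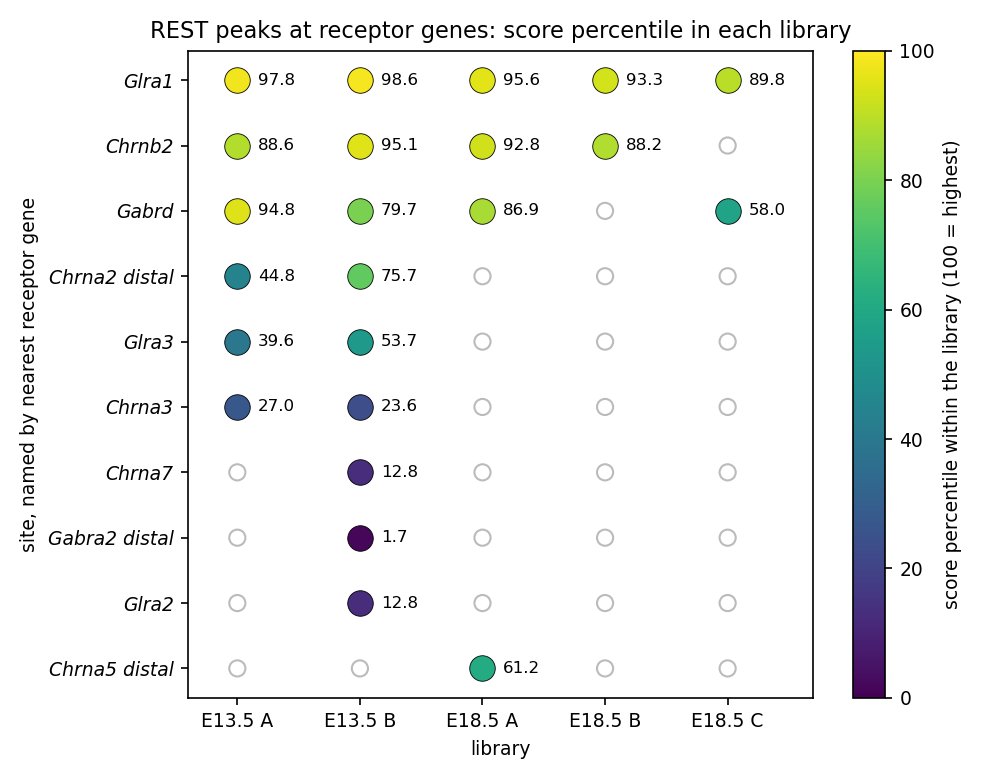
Score percentile within its library (0 lowest, 100 highest) of each of the 10 REST sites at receptor genes in the 5 libraries, with open circles where no peak was called. Glra1 is filled in all 5 columns, Gabrd and Chrnb2 are filled in 2 of the 3 E18.5 libraries, and the 3 sites called in E13.5 B alone have percentiles of 1.73 to 12.8.

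By receptor class, at E13.5 the counts were 1 of 16 GABA-A genes (6.25%), 2 of 5 glycine genes (40.0%) and 5 of 16 nicotinic genes (31.2%), beside 6.90% of all genes. The GABA-A share was close to that of all genes, and the 5 nicotinic genes had 3 sites between them. At E18.5 the counts were 1, 1 and 1, beside 2.20% of all genes. The GABA-A counts cover only the genes reported here, so their share is not that of the whole class. Chrna1, Chrnb1, Chrnd, Chrne and Chrng, which form the fetal and adult receptors of skeletal muscle, had no peak in any library, and 6 of the 11 other nicotinic genes had one, beside 9.80% of all genes. Of these 6, Chrnb4 was reached only through the Chrna3 site, Chrna5 through that site and a peak of E18.5 A, and Chrna7 through a weak peak of E13.5 B. The nicotinic genes of neurons and sensory cells without a peak were Chrna4, Chrna6, Chrna9, Chrna10 and Chrnb3. The 14 GABA-A genes without a peak were Gabra3, Gabra4, Gabra5, Gabra6, Gabrb1, Gabrb2, Gabre, Gabrg1, Gabrg3, Gabrp, Gabrq, Gabrr1, Gabrr2 and Gabrr3. Counting only sites within 5 kb of a start left 2 nicotinic genes, Chrna3 and Chrnb2. The classes are small and share sites, and no test was made between them.

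Several of these genes lie next to each other on a chromosome, in clusters that arose by duplication. Gabrg1, Gabra2, Gabra4 and Gabrb1 on chromosome 5, Gabre, Gabra3 and Gabrq on chromosome X, Gabrr2 and Gabrr1 on chromosome 4, Chrnb3 and Chrna6 on chromosome 8 and Chrnd and Chrng on chromosome 1 had no site called in both E13.5 libraries. Such a site was in reach of 6.90% of all genes, so most genes had none. In the chromosome 9 cluster the shared site lay at the start of Chrna3. Of the 37 genes, 5 lie on chromosome X, where 16 of 932 genes (1.72%) had such a site in reach.

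The sites 45.5 kb and 47.3 kb from the Chrna5 start were the closest to the edge of the 50-kb reach on its inner side. Farther out, a site called in both E13.5 libraries lay 74.3 kb upstream of Glra1, and 2 such sites lay 82.7 and 93.6 kb upstream of Chrna4, which had no site in reach.

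To ask whether binding at these genes differed between stages, each library was counted on its own. A peak was in reach of 8 and 11 receptor genes in E13.5 A and B, and of 4, 2 and 2 in E18.5 A, B and C. The means were 9.5 ± 2.12 (SD, n = 2) and 2.67 ± 1.16 (n = 3), and the groups did not overlap. The difference of 6.83 genes had p = 0.2 in an exact two-sided permutation test over the 10 arrangements of the libraries, which is the smallest p this design can give (adjusted p = 0.3 over 3 measures). When every library was reduced to its 226 highest-scoring peaks, the difference was 0.17 genes (exact p = 1.0). The E18.5 lists were shorter as a whole, and the part of list length in this difference was not otherwise tested.

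As a share of each list, peaks at receptor genes made up 0.429% (exact 95% binomial interval 0.157 to 0.930) and 0.675% (0.309 to 1.28) of the peaks of E13.5 A and B. At E18.5 they made up 0.739% (0.202 to 1.88), 0.480% (0.0581 to 1.72) and 0.885% (0.107 to 3.16) in A, B and C. These intervals cover counting error over peaks only. The stage means were 0.552% ± 0.174 (n = 2) and 0.701% ± 0.205 (n = 3), and the groups overlapped (exact permutation p = 0.4, adjusted p = 0.4). The windows of the 37 genes covered 5.29 Mb, or 0.199% of the assembled chromosomes. That share of bases is not a like background for the peak shares. The windows were set on genes, and 27.8% of the 1183 searched E13.5 sites lay within 5 kb of a gene start. The median percentile of the receptor peaks was 66.7 in E13.5 A, 53.7 in E13.5 B, 89.8 in E18.5 A, 90.8 in E18.5 B and 73.9 in E18.5 C. The stage means of this median percentile were 60.2 ± 9.17 (n = 2) and 84.8 ± 9.48 (n = 3), and the groups did not overlap (exact permutation p = 0.2, the smallest possible, adjusted p = 0.3). The E18.5 medians rested on 2 to 4 peaks each, and the 2 stages were measured over different sites, since the weaker E13.5 sites had no E18.5 peak. At the 3 sites called at both stages, the E18.5 percentiles of Glra1 were all below those of E13.5, and those of Gabrd and Chrnb2 overlapped with E13.5. Percentiles at the top of lists of unlike length are not like for like, since the same rank gives a lower percentile in a shorter list.

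**Figure D4:**
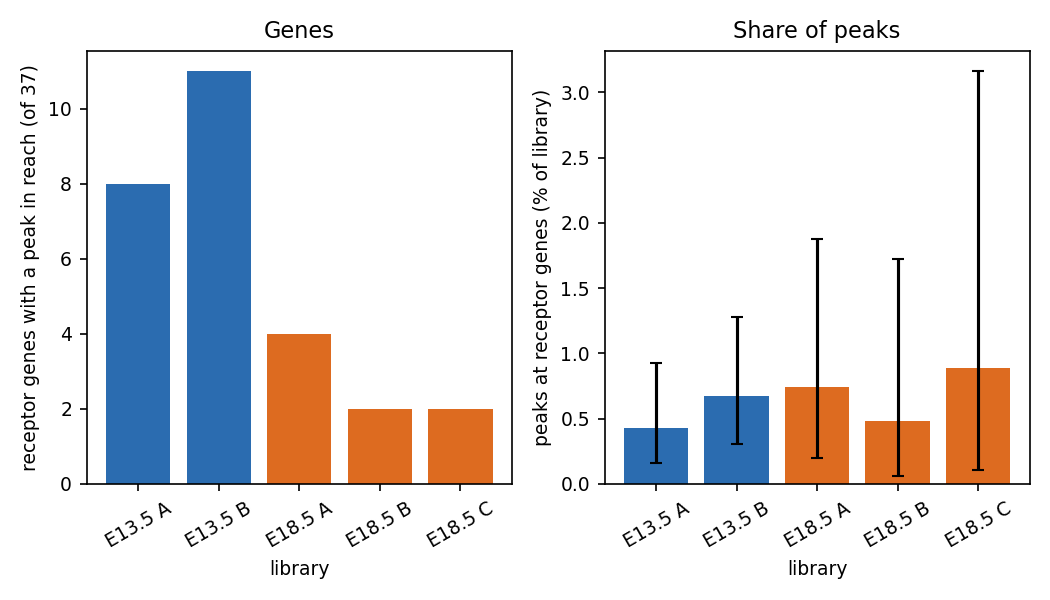
Left, number of the 37 receptor genes with a peak in reach in each library; right, peaks at receptor genes as a percentage of the peaks of that library, with exact 95% binomial intervals as error bars (blue, E13.5; orange, E18.5). The number of genes is 8 and 11 at E13.5 and 2 to 4 at E18.5, whereas the intervals of the shares overlap in all 5 libraries.

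Of the 6 receptor sites called in both E13.5 libraries, 3 were called in at least 2 E18.5 libraries, beside 20.6% of all 1186 such sites. An E18.5 peak in any library was present at the same 3, beside 40.5% of all sites. The 3 sites called again had mean E13.5 percentiles of 87.3 to 98.2, and the 3 that were not had 25.3 to 60.2, so the groups did not overlap. Over all E13.5 sites the same relation was seen, with an E18.5 peak at 92.2% of the 153 sites at or above 87.3 and at 32.8% of the 1033 sites below it. The median of the mean E13.5 percentile was 73.7 for the receptor sites and 54.3 for all sites. The receptor sites called again were those with the higher E13.5 percentiles, and the limit of 87.3 was taken from these same sites. The part of E13.5 rank in being called again was not tested.

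**Figure D5:**
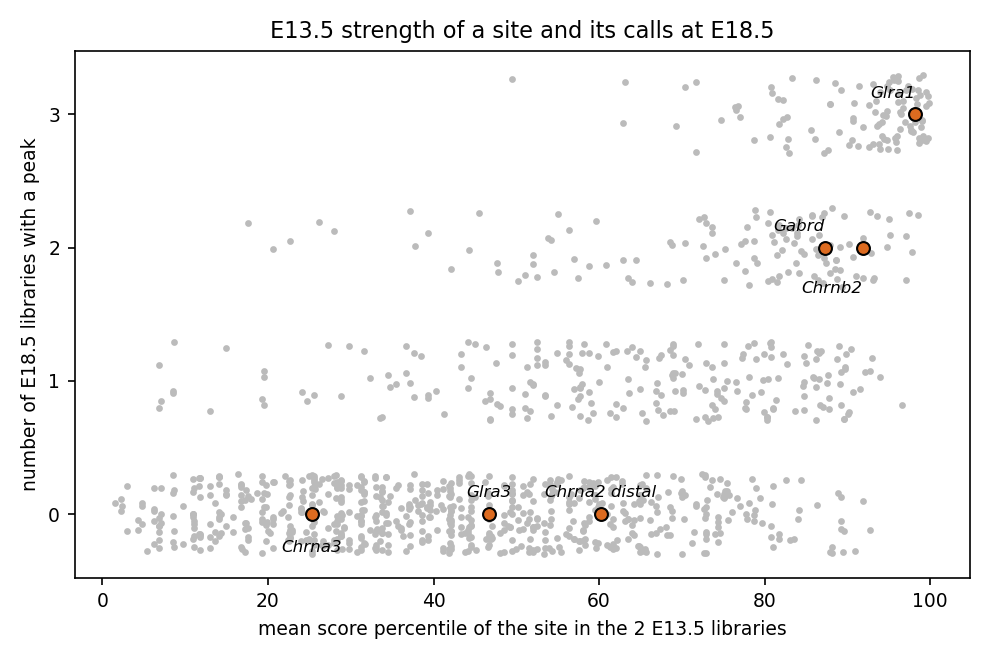
Mean score percentile in the 2 E13.5 libraries (x axis) and number of E18.5 libraries with a peak (y axis) for the 1186 sites called in both E13.5 libraries; grey points are other sites, spread vertically for display, and orange points the 6 receptor sites. The 3 receptor sites called again lie at 87.3 or above and the 3 not called again at 60.2 or below.

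RE1 elements were also counted over the genome, whether or not a peak lay there. The consensus came from sites called in both E13.5 libraries, so the genome shares below are not independent of those sites. The genome held 1858 elements with at most 3 mismatches, and 37.4% of them lay at a site called in both E13.5 libraries. The windows of the receptor genes held 6 such elements, of which 4 lay at a shared E13.5 site and 5 at a peak of any library. With 1 mismatch, 2 of 2 receptor elements and 83.6% of the 110 in the genome had a shared site. With 2 mismatches this was so for 2 of 2 and 70.4% of 402, and with 3 mismatches for 0 of 2 and 23.0% of 1332. The receptor elements with 3 mismatches were the Gabra2 element, which had a peak in E13.5 B alone, and an element 38.3 kb upstream of Glrb, which had no peak. In the RefSeq promoters of the GRCm38.p6 build (300 bases each), an RE1 match was found in 1.82% of 27025 genes and in 2 of the 31 receptor genes with a promoter sequence, Glra2 and Glra3, both with 5 mismatches. The Glra3 promoter match was not the element of the Glra3 site, which had 2 mismatches and lay 310 bp downstream of the start.

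Genes that act with these receptors were counted by the same rule. Their lists were chosen with earlier results of these data known, so the shares are descriptive only. Of 17 genes of inhibitory transmission, 6 (35.3%) had a site in both E13.5 libraries, beside 6.90% of all genes. These were Gad1, which makes GABA, Slc32a1, the vesicular GABA and glycine transporter, Slc6a11 and Slc6a5, the plasma membrane transporters of GABA and glycine, Slc12a5, the neuronal chloride exporter, and Gabbr2, a subunit of the metabotropic GABA-B receptor. At E18.5 Slc12a5 alone had a site in at least 2 libraries (5.88%, beside 2.20% of all genes). The best Slc12a5 site had a mean E13.5 percentile of 87.1, and the Gabbr2 site, near the start, had 90.4. The Slc6a5 site was nearer still to its start, at 0.456 kb, but weak, with a mean E13.5 percentile of 14.9. The Gad1 site lay at 6.65 kb, with 67.2. The best sites of Slc6a11 and Slc32a1 were far from the start, at -43.9 kb and -26.0 kb (negative upstream). Gphn and Nlgn2, which anchor and organize inhibitory receptors, had no peak in reach. Of the 18 annotated genes of cholinergic transmission, 3 (16.7%) had a site at E13.5, beside 6.90% of all genes. These were Chat, which makes acetylcholine, Chrm4, a muscarinic receptor, and Ric3, a chaperone of nicotinic receptors, and at E18.5 Chat alone had one. The best Ric3 site lay at -46.3 kb, near the edge of the reach. Rapsn, Musk, Agrn, Dok7 and Colq, which build the neuromuscular junction, had no peak in reach, as was so for most genes of the genome. Of the serotonin-gated channel genes of the same family, Htr3a had an E13.5 site and Htr3b had none.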

How the data were processed

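REST ChIP-seq peak lists of 5 libraries (2 at E13.5, 3 at E18.5) were analysed. Per the submitters' processing notes and the methods of the study, reads were aligned with Bowtie2 2.2.5, peaks were called against input with MACS2 2.1.0, and SAMtools was used. The deposited lists, 1 per library, carry a score that the authors gave each peak, with no stated unit. File names state removal of duplicates and a false discovery rate of 10%. Read totals were not used, so depth is unknown, and a missing peak is not a measurement of absent binding. Libraries were grouped by stage, and p-values measure only the spread between these pools.

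Overlapping entries of a library were merged with the highest score kept. Peaks of different libraries that overlapped by at least 1 bp were joined into 1860 sites, of which 1186 were called in both E13.5 libraries and 252 in at least 2 E18.5 libraries. Percentiles are mid-ranks of the score within a library. Peaks were assigned to genes of the GENCODE M1 annotation of mm9. The RE1 consensus was built from the most enriched 8-mer in 200-bp windows, extended to 21 positions and refined over 10 rounds, and a letter was kept where at least 50% of the aligned sites had it. Sites on unplaced sequence were not searched. Python 3.11.15, numpy 2.4.6, scipy 1.17.1 and pysam 0.24.0 were used, and the code was tested on simulated data.

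Receptor genes, gene lists, tests and alternatives were chosen with earlier results of these data known. Some genes that the symbol rule takes in are not reported here and enter no count of receptor genes. Every other receptor gene with a peak in any library was named. Stages were compared by exact two-sided permutation tests over libraries, adjusted by Benjamini-Hochberg over 3 measures. Alternatives changed the gene window, overlap, score limit, number of libraries required, mismatch limit and search window, and left out each library in turn.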

Additional observations from a re-analysis of the deposited data

How the results depend on the processing

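With peaks limited to those above the median score of each library, 3 receptor genes had a site in both E13.5 libraries. With sites limited to 5 kb around a start 5 had one, beside 1.56% of all genes. A site in all 3 E18.5 libraries was present at 1 gene, Glra1, and leaving out 1 E18.5 library gave 1 to 2 genes, the lowest without library A. These alternatives use fewer peaks, libraries or bases by construction. The E13.5 count was 8 to 11 with 1 library left out. The share of all genes under the score and library limits was not counted, so these gene counts have no background beside them. The share of peaks at receptor genes was lower at E13.5 than at E18.5 in the reported comparison (difference -0.149 percentage points), and when every library was reduced to its 226 highest-scoring peaks it was 0.0738 percentage points higher (exact permutation p = 1.0), and the cause was not tested. This difference was -0.0262 without E13.5 A, -0.273 without E13.5 B, -0.130 without E18.5 A, -0.260 without E18.5 B and -0.0576 without E18.5 C. With the peaks above the median score it was -0.790. The difference in genes per library was 6.83, and it was 5.33 to 8.33 with 1 library left out, 1.33 with the peaks above the median score and 0.17 with the 226 highest-scoring peaks. All 6 receptor sites kept a match with at most 6 mismatches or in a 200-bp window, and 5 kept it with at most 4. No stage difference passed 0.05 under any alternative, and the design could not reach it. No paired analysis was possible because a letter does not tie an E13.5 library to an E18.5 library; the pools were made from different embryos. The precision is limited by the number of libraries and by unknown depth.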
